A study of Mus musculus with 24 samples.

Results

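The genes described here are 46 cell cycle and DNA replication genes, taken by symbol from the 24421 genes of a mouse gut RNA-seq table. All 46 were in the table and all 46 passed the filter on low values in both tissues. By role they are 8 cyclin and cyclin-dependent kinase (CDK) genes, 4 regulators of transcription and chromatin, 10 genes for origin licensing and the replicative helicase, 5 genes for the replication clamp and nucleotide supply, 9 mitotic kinase, checkpoint and anaphase genes, 8 spindle and centromere genes, and the pair Mki67 and Top2a. In the gut, stem cells and transit-amplifying cells at the crypt base divide, and their daughters leave the cycle as they move up. E2F factors switch on licensing and nucleotide genes before S phase. FOXM1, MYBL2 and the MuvB complex switch on mitotic genes in G2, so transcripts of these genes track the number of cycling cells and their phase.

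The data are bulk poly-A or total RNA profiles (the labels give both a polyA RNA entry and a ribosomal RNA removal kit) of epithelial cells sorted as Villin-tomato positive and CD45 negative. Each of 12 C57BL/6 mice, 8 to 14 weeks old, gave 1 colon and 1 ileum library. The KO early group had 4 mice taken 2 weeks after chimerism, the KO late group 3 mice taken 8 weeks after it, the WT irradiated group 2 mice at 8 weeks, and the WT non-irradiated group 3 mice that received no treatment. The series title names macrophages of the gut that lack the IL-10 receptor alpha chain, and the labels call the chimeras KO without naming an allele. In a bone marrow chimera the epithelium is the host's, so KO stands for the marrow the mouse received, not for the sorted cells. There was no WT group at 2 weeks, so time after irradiation and genotype cannot be told apart for the KO early group. In bulk samples, fewer cycling cells and less RNA of these genes in each cell cannot be told apart.

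Libraries held 8.32 M to 18.7 M reads, and the 45S ribosomal precursor Rn45s took 0.0642% to 29.4% of them, most in the ileum of KO early mouse 100. The 7 epithelial markers (summed 51560 to 204300 normalised reads) were far above the 10 leukocyte markers (248 to 735), although 9 of those 10 were above 0 in every library. The summed levels of 8 myeloid markers were 2029 to 7353 in KO late colon, 637 to 5024 in KO early colon and 322 to 489 in WT colon. Marker by marker the change was smaller. Against WT irradiated colon the median log2 change of the 8 was 0.73 in KO late and 0.48 in KO early colon. By the test named below, 1 of them was higher in KO late colon (0.642% of all genes were) and none in KO early colon (0.167%). Levels below are normalised reads, that is, reads divided by a scaling factor for the library. Fold changes are on the log2(normalised reads + 1) scale with their standard errors (SE). A gene is said to rise, fall or be called where limma's Benjamini-Hochberg adjusted p over all genes tested was under 0.05.

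**Figure D1:**
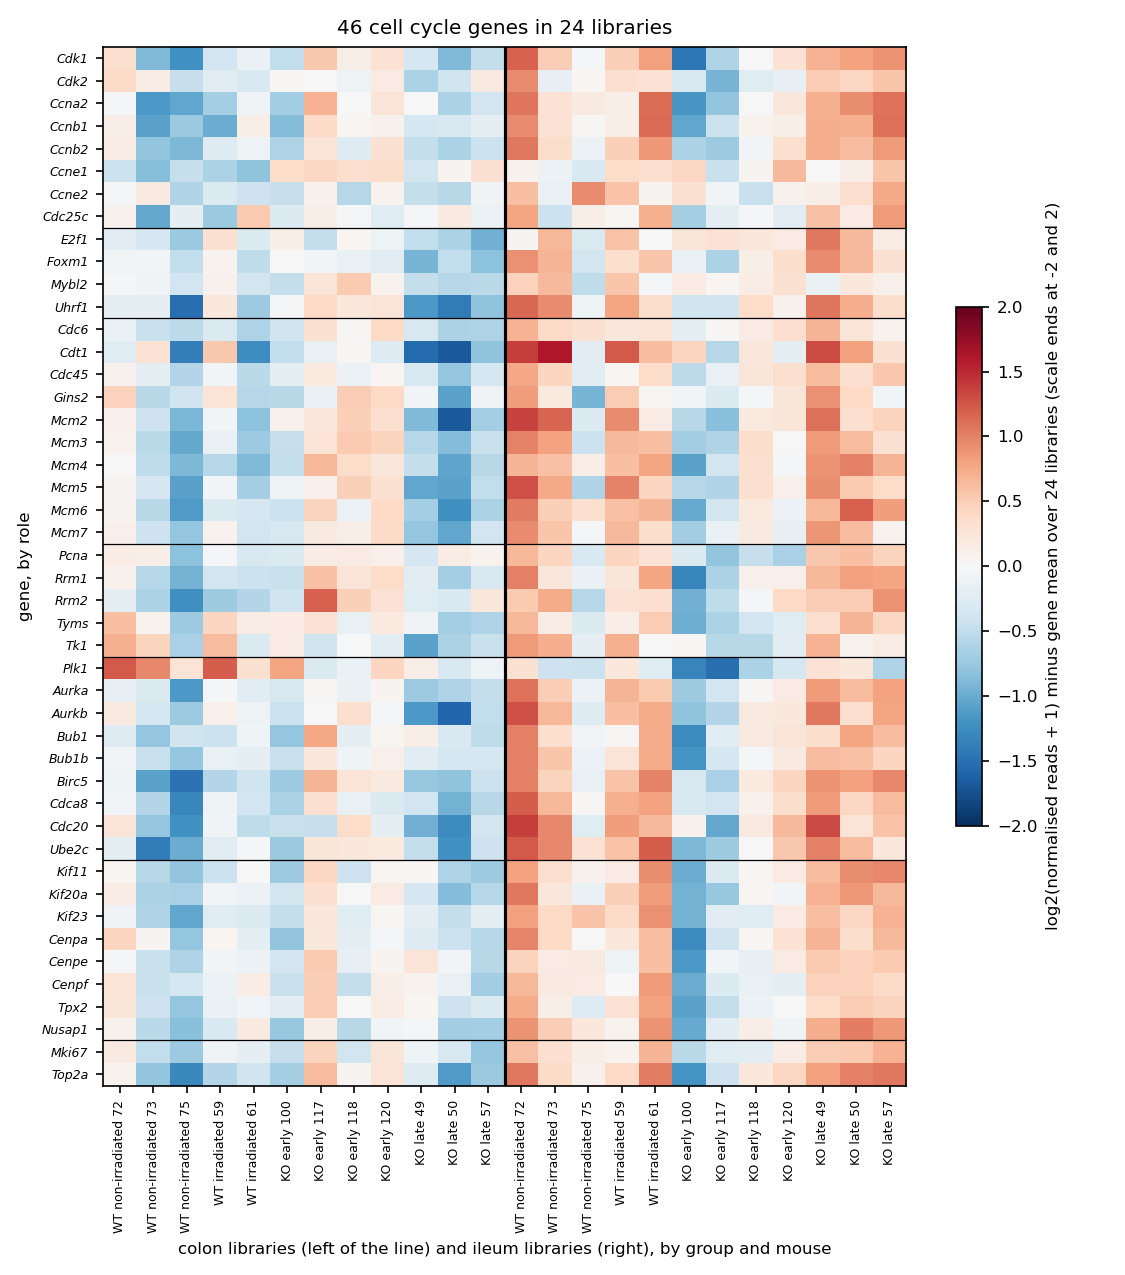
Each cell is the log2(normalised reads + 1) of 1 gene (vertical axis, by role) in 1 library (horizontal axis, colon left and ileum right of the line), minus that gene's mean over the 24 libraries. Ileum libraries of WT and KO late mice, other than WT non-irradiated mouse 75, were mostly above the gene means and those of KO early mice 100 and 117 mostly below.

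The colon and ileum of the 5 WT mice differed in these genes. In this comparison, 28 of the 46 genes were lower in colon and 1 was higher, where 10.9% of the 19588 genes tested were lower and 10.8% higher. The members' median difference, colon minus ileum, was -0.77 on the log2 scale, against 0.01 over all genes tested. The 29 calls became 6 without mouse 61, 12 without mouse 59, 15 without mouse 73, and 15 on reads scaled to a fixed total without Rn45s, while the median stayed between -0.86 and -0.66. How the calls over all genes moved under these settings is not given here. Mki67, which encodes the Ki-67 protein of cycling cells, had 1770 and 1612 normalised reads in WT irradiated colon and 2088, 1317 and 1115 in WT non-irradiated colon. In ileum, Mki67 had 1947 and 2980 normalised reads in WT irradiated mice and 2795, 2304 and 2023 in WT non-irradiated mice. The ranges overlapped by the colon of mouse 72, while within every mouse the ileum was higher, and the fold change was -0.60 ± 0.21 (adjusted p = 0.0482). Top2a, the topoisomerase that untangles replicated chromosomes, had 965 and 1097 normalised reads in WT irradiated colon and 1518, 835 and 587 in WT non-irradiated colon. Its ileum levels were 1893 and 2944 in WT irradiated and 3000, 1876 and 1537 in WT non-irradiated mice, all above every WT colon library, and it was 2.28-fold lower in colon (log2 -1.19 ± 0.31, adjusted p = 0.00684).

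Among the genes for licensing and the helicase, 8 of 10 fell in WT colon against ileum. Mcm6, a subunit of the MCM2-7 helicase that is loaded at origins, had 379 and 369 normalised reads in WT irradiated colon and 480, 317 and 212 in WT non-irradiated colon. In ileum Mcm6 had 696 and 748 normalised reads in WT irradiated mice and 955, 646 and 583 in WT non-irradiated mice, with no overlap, and it was 2.07-fold lower in colon (log2 -1.05 ± 0.25, adjusted p = 0.00299). Mcm4, another subunit, was 2.27-fold lower in colon (log2 -1.18 ± 0.25, adjusted p = 0.00117). Cdt1, which loads the helicase, was 2.50-fold lower (log2 -1.32 ± 0.39, adjusted p = 0.0164). Mcm5 was 2.01-fold lower (log2 -1.01 ± 0.31, adjusted p = 0.0189). The other pair, Cdc45 of the active helicase (log2 -0.53) and Gins2 of its GINS partner (log2 -0.31), did not pass the test.

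Of the 8 cyclin and CDK genes, 5 fell in WT colon. Cdk1, the kinase that drives entry into mitosis, had a log2 change of -1.02 ± 0.32, its partner Ccnb1 one of -1.03 ± 0.32 and Ccna2, the cyclin of S and G2 phase, one of -1.13 ± 0.31 (adjusted p = 0.0231, 0.0205 and 0.00949). Ccne1, the cyclin E that starts S phase, was 1.71-fold lower (log2 -0.77 ± 0.22, adjusted p = 0.0127). Of the 9 mitotic kinase, checkpoint and anaphase genes 6 fell, among them Ube2c, the ubiquitin-conjugating enzyme of the anaphase-promoting complex (log2 -1.35 ± 0.31, adjusted p = 0.00252), and Birc5, the survivin subunit of the chromosomal passenger complex (log2 -1.30 ± 0.29, adjusted p = 0.00199). Cdc20, an activator of the anaphase-promoting complex, and Cdca8, the borealin subunit of the passenger complex, fell as well (log2 -1.15 ± 0.35 and -1.14 ± 0.26, adjusted p = 0.0204 and 0.0019). Of the 8 spindle and centromere genes 4 fell, led by Kif23, a kinesin of the cytokinesis midzone, which was 2.05-fold lower with no overlap between tissues (log2 -1.04 ± 0.21, adjusted p = 0.000689). Only 2 of the 5 clamp and nucleotide genes fell, namely Rrm1 and Rrm2, the subunits of ribonucleotide reductase (log2 -0.88 ± 0.28 and -0.94 ± 0.31, adjusted p = 0.0246 and 0.0337). Pcna, the sliding clamp, did not pass (log2 -0.49 ± 0.21, adjusted p = 0.106). Of the 4 regulators 1 fell, Uhrf1, which brings DNA methylation to replicated DNA (log2 -1.06 ± 0.29, adjusted p = 0.0086). E2f1 was 1 of those that did not pass (log2 -0.43 ± 0.25, adjusted p = 0.272).

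Plk1, the mitotic kinase that acts from centrosome maturation to cytokinesis, was the 1 member that went the other way. It had 812 and 435 normalised reads in WT irradiated colon and 823, 690 and 424 in WT non-irradiated colon, and in ileum 407 and 298 in WT irradiated and 437, 265 and 261 in WT non-irradiated mice. The 2 lowest colon libraries lay just under the highest ileum library, and Plk1 was 1.84-fold higher in colon (log2 0.88 ± 0.28, adjusted p = 0.0275).

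Because Mcm6 and Top2a fell together with most members while Plk1 went the other way and Ccne1, as given below, differed little between the tissues of KO late mice, the 200 bases upstream of these 4 genes' starts are shown (RefSeq windows on GRCm38.p6, 5′ to 3′ on the gene's strand). Capitals mark matches on either strand to the CCAAT box (CCAAT), to the cell cycle homology region (CHR, TTTGAA) that MuvB complexes bind, or to 4 forms of an E2F site (TTTCCCGC, TTTGGCGC, TTTCGCGC and TTTGCCGC).
Mcm6, chr1:128359706-128359905, minus strand: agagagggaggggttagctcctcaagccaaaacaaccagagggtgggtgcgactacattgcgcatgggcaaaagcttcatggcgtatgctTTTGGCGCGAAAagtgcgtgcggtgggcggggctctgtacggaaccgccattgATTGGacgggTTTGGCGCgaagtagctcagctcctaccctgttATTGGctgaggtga
Top2a, chr11:99024190-99024389, minus strand: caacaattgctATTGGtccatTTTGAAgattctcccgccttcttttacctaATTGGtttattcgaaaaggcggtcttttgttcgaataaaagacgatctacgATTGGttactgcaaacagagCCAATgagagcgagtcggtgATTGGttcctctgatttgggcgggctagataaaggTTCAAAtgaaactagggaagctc
Plk1, chr7:122159235-122159434, plus strand: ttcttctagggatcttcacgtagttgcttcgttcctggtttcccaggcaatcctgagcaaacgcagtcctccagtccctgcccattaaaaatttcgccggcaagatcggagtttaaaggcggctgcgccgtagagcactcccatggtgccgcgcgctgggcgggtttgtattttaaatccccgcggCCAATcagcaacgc
Ccne1, chr7:38107491-38107690, minus strand: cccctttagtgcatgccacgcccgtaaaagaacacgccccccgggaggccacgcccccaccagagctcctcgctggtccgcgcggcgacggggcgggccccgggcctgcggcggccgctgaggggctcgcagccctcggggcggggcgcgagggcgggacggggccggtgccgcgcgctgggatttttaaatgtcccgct
The Mcm6 stretch held 3 E2F matches, of which 2 overlap on opposite strands, and 2 CCAAT matches. The Top2a stretch held 5 CCAAT and 2 CHR matches, the Plk1 stretch 1 CCAAT match and the Ccne1 stretch none of these letters. Over windows of 300 bases, which run to 50 bases past the start, 37 of the 46 members had an entry. Of these, 28 held a CCAAT match (75.7%, against 37.9% of all 27025 windows), 16 a CHR match (43.2% against 18.1%) and 8 an E2F match (21.6% against 2.32%). Plk1 was among those with a CHR match, which lies outside the 200 bases shown, so the shorter stretch does not set it apart from Top2a in this. These are matches of letters, and binding was not measured here.

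In KO late mice the tissue difference was present in 34 members, all lower in colon, where 17.0% of all genes tested were lower. All 46 members had a fold change below 0 in this comparison and the median was -1.20, against 0.07 over all genes tested and -0.32 over the 10875 expressed genes (those that average 100 normalised reads or more). In 43 of the 46 every colon library was below every ileum library, which held for 24.4% of all genes. The 34 calls became 10 without mouse 50, 16 without mouse 49, 21 without mouse 57 and 17 on reads scaled to a fixed total without Rn45s, while the median stayed between -1.23 and -0.97. Here too the change in calls over all genes is not given. Mki67 had 1743, 1490 and 1083 normalised reads in KO late colon and 2599, 2673 and 2987 in KO late ileum (log2 -0.96 ± 0.27, adjusted p = 0.0126). Top2a had 1209, 659 and 857 in colon and 2552, 2909 and 2990 in ileum (3.19-fold lower, log2 -1.67 ± 0.39, adjusted p = 0.00349). The 3 mice did not overlap between tissues in either gene. Receptor reads (reads on olfactory and vomeronasal receptor genes, counted as a background) per M reads were 1052, 1026 and 752 in KO late colon, the highest of all 24 libraries, against 282, 443 and 413 in KO late ileum. With receptor reads as a covariate 25 members passed, where 18.7% of all genes passed in either direction, and the members' median was -0.97.

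Of the 10 licensing and helicase genes 9 fell in KO late colon against ileum, with Gins2 not passing. Mcm6 had 290, 198 and 298 normalised reads in colon against 738, 1069 and 832 in ileum, a 3.36-fold difference (log2 -1.75 ± 0.32, adjusted p = 0.000283). Cdt1 had 18.6, 16.7 and 31.6 in colon against 140, 99.3 and 69.3 in ileum, the largest fold among the members (4.45-fold lower, log2 -2.15 ± 0.50, adjusted p = 0.00296). Mcm2 was 3.26-fold lower (log2 -1.71 ± 0.40, adjusted p = 0.00364) and Mcm5 2.78-fold lower (log2 -1.48 ± 0.39, adjusted p = 0.00765). Of the 4 regulators 3 fell, Uhrf1 3.56-fold (log2 -1.83 ± 0.36, adjusted p = 0.000739), E2f1 2.48-fold (log2 -1.31 ± 0.32, adjusted p = 0.00413) and Foxm1. Of the 9 mitotic kinase, checkpoint and anaphase genes 7 fell, with Aurkb, the kinase of the chromosomal passenger complex, 3.49-fold lower (log2 -1.80 ± 0.38, adjusted p = 0.00122). Of the 8 cyclin and CDK genes 5 fell, including Cdk1 (log2 -1.37 ± 0.40, adjusted p = 0.0161), Ccnb1 (log2 -1.14 ± 0.40, adjusted p = 0.0374) and Ccnb2 (log2 -1.24 ± 0.33, adjusted p = 0.00841). Of the 8 spindle and centromere genes 5 fell, including Nusap1, a microtubule-binding protein, and the kinesin Kif20a (log2 -1.33 ± 0.32 and -1.33 ± 0.31, adjusted p = 0.00439 and 0.00321). Of the 5 clamp and nucleotide genes 3 fell, Rrm1 (log2 -1.16 ± 0.35, adjusted p = 0.0184), Tyms and Tk1, which make nucleotide precursors. Pcna (log2 -0.57 ± 0.26, adjusted p = 0.1) and Rrm2 (log2 -0.74 ± 0.40, adjusted p = 0.142) did not pass.

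Ccne1 and Plk1 stood nearest to 0 in KO late mice. Ccne1 had 39.6, 53.3 and 64.1 normalised reads in colon and 52.1, 56.9 and 76.0 in ileum (log2 -0.24 ± 0.28, adjusted p = 0.487). Plk1 had 387, 286 and 326 in colon and 428, 412 and 229 in ileum (log2 -0.05 ± 0.36, adjusted p = 0.91). Both genes overlapped between tissues.

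The list of members lower in colon was largely shared by WT and KO late mice: 26 members were on both, 92.9% of the WT list and 76.5% of the KO late list. Sharing was common over all genes tested too, with 1619 lower in both, of 2129 lower in WT and 3327 in KO late mice. Ccne1 and Rrm2 were on the WT list alone, and E2f1, Foxm1, Cdk2, Cdc45, Tyms, Tk1, Aurkb and Cenpa on the KO late list alone. No member passed the test of the difference between the KO late and WT irradiated tissue effects (0.189% of all genes tested did), the median of that difference was -0.39, and at an unadjusted p under 0.05 there was 1 member, E2f1 (log2 -1.03 ± 0.50), against 3.04% of all genes in that direction. edgeR and DESeq2 called none either. Mki67 (log2 -0.45 ± 0.43), Top2a (log2 -0.48 ± 0.62), Mcm5 (log2 -0.40 ± 0.61) and Cdk1 (log2 -0.46 ± 0.64) had errors about as large as their differences, and Aurkb (log2 -1.13 ± 0.59) and Ccne1 (log2 0.83 ± 0.44) had the extreme values on each side.

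**Figure D2:**
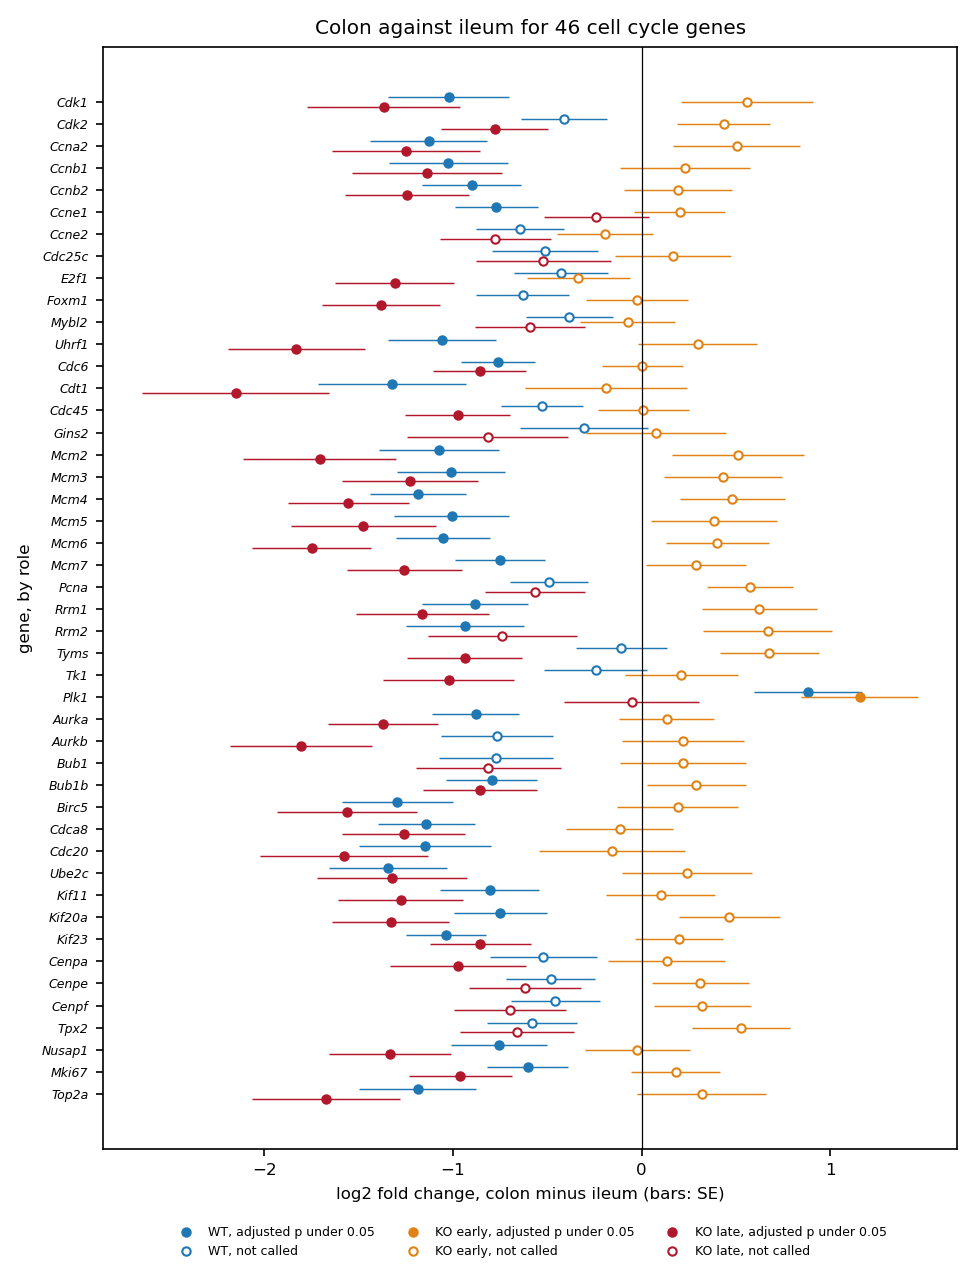
The horizontal axis is the log2 fold change, colon minus ileum, with SE bars, for each of 46 genes (vertical axis, by role) in WT (blue), KO early (orange) and KO late (red) mice. Filled points passed the test. 28 WT points and 34 KO late points are filled to the left of 0, while in KO early mice the filled point is Plk1, to the right of 0.

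In KO early mice no member was lower in colon than in ileum by limma, edgeR or DESeq2, nor at an unadjusted p under 0.05, and 1 was higher by each of the tools, where 6.43% of all genes tested were lower and 7.73% higher. Plk1 was higher, with 612, 288, 320 and 475 normalised reads in colon and 140, 124, 226 and 276 in ileum (2.23-fold, log2 1.16 ± 0.31, adjusted p = 0.0119). All 4 colon libraries were above all 4 ileum libraries, and no member passed without mouse 100. The members' median was 0.22, against -0.09 over all genes tested, and 38 of the 46 had a fold change above 0. Mki67 had 1341, 2533, 1439 and 2187 normalised reads in the colons of mice 100, 117, 118 and 120, and 1272, 1558, 1588 and 2062 in their ilea (log2 0.18 ± 0.24, adjusted p = 0.715). Top2a had 908, 2225, 1492 and 1736 in colon and 630, 1081, 1664 and 1912 in ileum (log2 0.32 ± 0.34, adjusted p = 0.657). Mcm6 had 345, 634, 430 and 612 in colon and 230, 358, 534 and 430 in ileum. In these 3 genes the tissues overlapped, and mouse 118 had the higher level in ileum in each. Pcna did not overlap, with 204.1, 274, 278 and 267 in colon and 203.9, 144, 180 and 158 in ileum, but did not pass over all genes (log2 0.58 ± 0.23, adjusted p = 0.11). Nor did Tyms, thymidylate synthase (log2 0.68 ± 0.26, adjusted p = 0.101). E2f1 was lower in all 4 colon libraries than in any ileum library without passing (log2 -0.34 ± 0.27, adjusted p = 0.541). Rrm2 (log2 0.67 ± 0.34), Cdk1 (log2 0.56 ± 0.35), Tpx2, a spindle assembly factor (log2 0.53 ± 0.26), Mcm2 (log2 0.51 ± 0.35), Mcm4 (log2 0.48 ± 0.28), Cdk2 (log2 0.43 ± 0.25), Mcm5 (log2 0.38 ± 0.33), Ccnb1 (log2 0.23 ± 0.34) and Ccne1 (log2 0.20 ± 0.24) were above 0 and did not pass (adjusted p from 0.229 to 0.753). With the mouse as a block, since both tissues come from the same animal, 4 members were higher in colon, against 9.99% of all genes.

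Counted within each mouse, 43 to 45 of the 46 members were higher in ileum than in colon in the 5 WT mice and 45 to 46 in the 3 KO late mice. In KO early mice the counts were 10 in mouse 100, 1 in mouse 117, 24 in mouse 118 and 24 in mouse 120. Over all genes tested, 44.8% to 58.9% were higher in ileum in each of the 12 mice. There were 38 members higher in ileum in all 8 WT and KO late mice and 13 members higher in colon in all 4 KO early mice. The shares per mouse are not the background for these joint counts. No joint share over all genes was taken, so nothing is read from them.

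**Figure D3:**
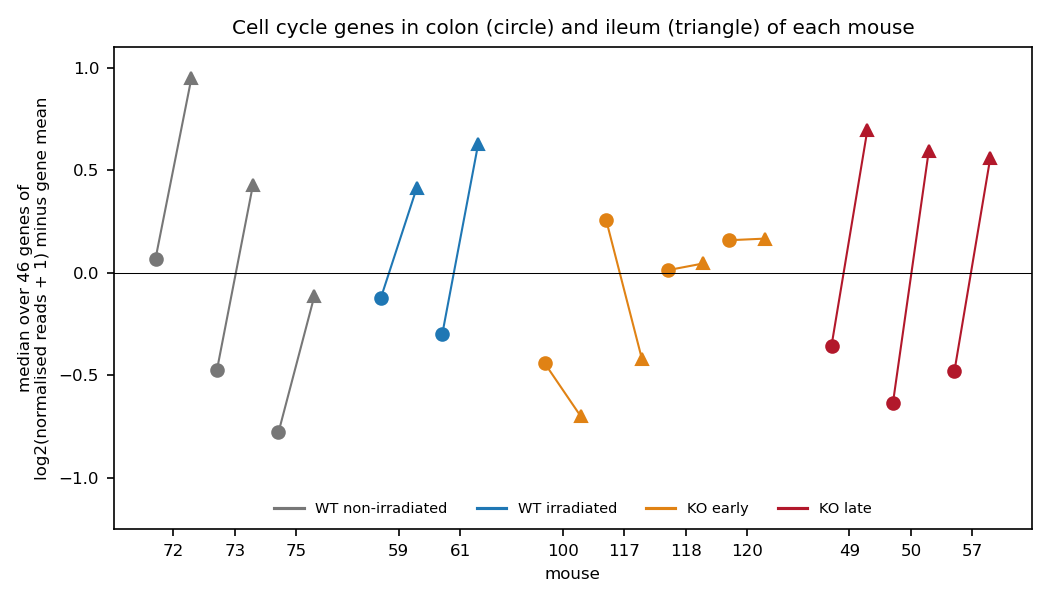
For each mouse (horizontal axis), the median over the 46 genes of log2(normalised reads + 1) minus the gene's mean over all libraries (vertical axis) is drawn for colon (circle) and ileum (triangle), joined by a line. The lines rise from colon to ileum in all 8 WT and KO late mice, fall in KO early mice 100 and 117, and are nearly flat in mice 118 and 120.

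Whether the tissue effect differed between KO late and KO early mice was tested as an interaction, a comparison added after the data were seen. The difference of the colon minus ileum log2 changes, KO late minus KO early, was below 0 in all 46 members with a median of -1.36, against -0.02 over all genes tested and -0.34 over the expressed genes. There were 11 members that passed, all negative, where 2.08% of all genes tested passed in that direction. Of these, 4 were helicase subunits, Mcm2 (-2.22 ± 0.53), Mcm6 (-2.15 ± 0.42), Mcm4 (-2.04 ± 0.42) and Mcm7 (-1.55 ± 0.40), with adjusted p between 0.0306 and 0.0449. The others were Uhrf1 (-2.13 ± 0.48), Aurkb (-2.02 ± 0.50), Top2a (-1.99 ± 0.52), Kif20a (-1.79 ± 0.41), Rrm1 (-1.79 ± 0.47), Tyms (-1.62 ± 0.40) and Aurka, the kinase of the spindle poles (-1.50 ± 0.39). Cdk1 (-1.93 ± 0.54), Mcm5 (-1.86 ± 0.51), Rrm2 (-1.41 ± 0.52), Ccnb1 (-1.37 ± 0.53), Plk1 (-1.21 ± 0.47), Pcna (-1.14 ± 0.35), Mki67 (-1.14 ± 0.36), E2f1 (-0.97 ± 0.42) and Ccne1 (-0.44 ± 0.37) did not pass (adjusted p from 0.0524 to 0.388). With the mouse as a block 40 members passed, all negative, against 12.9% of all genes. The 11 became 7 without mouse 118, and no member passed without any 1 of the other 6 mice, on reads scaled to a fixed total without Rn45s, or with the median of expressed genes subtracted, while the members' median stayed between -1.45 and -1.15.

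The same test of KO early against both WT groups, also added, called no member with limma (0.414% of all genes tested passed). All 46 differences were above 0, with a median of 1.02 against -0.08 over all genes tested, and 33 members had an unadjusted p under 0.05 in that direction against 8.41% of all genes. The smallest adjusted p was that of Mcm4 (log2 1.66 ± 0.38, adjusted p = 0.0513). Ccna2 (log2 1.63 ± 0.46), Rrm2 (log2 1.60 ± 0.46), Ube2c (log2 1.58 ± 0.46), Cdk1 (log2 1.58 ± 0.47), Rrm1 (log2 1.51 ± 0.41), Top2a (log2 1.51 ± 0.46), Birc5 (log2 1.49 ± 0.43), Mcm5 (log2 1.39 ± 0.45), Uhrf1 (log2 1.36 ± 0.42), Ccnb1 (log2 1.25 ± 0.47), Kif23 (log2 1.24 ± 0.31), Pcna (log2 1.07 ± 0.31), Ccne1 (log2 0.97 ± 0.33) and Mki67 (log2 0.78 ± 0.32) were on the same side, and Plk1 (log2 0.27 ± 0.42) and E2f1 (log2 0.09 ± 0.37) were near 0. edgeR called 1 member (0.556% of all genes in either direction) and DESeq2 12 (3.16% of all genes), and with the mouse as a block limma called 23, against 2.43% of all genes. Set against the WT irradiated mice alone, as planned, the median was 0.96, no member passed (0.0408% of all genes did), and 21 had an unadjusted p under 0.05 in the positive direction against 6.06% of all genes. Besides Mcm4, the values included Rrm2 (log2 1.63 ± 0.59), Top2a (log2 1.51 ± 0.59), Cdk1 (log2 1.47 ± 0.61), Mcm5 (log2 1.46 ± 0.58), Ccnb1 (log2 1.30 ± 0.60), Ccne1 (log2 1.27 ± 0.42), Pcna (log2 1.11 ± 0.40), Mki67 (log2 0.69 ± 0.41), Plk1 (log2 0.39 ± 0.54) and E2f1 (log2 -0.06 ± 0.47). There edgeR called 0 and DESeq2 1 (0.470% of all genes), and the block gave 1, Mcm4 (log2 1.91), against 0.199% of all genes.

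Within the ileum, the KO early libraries had lower levels of the members than the WT irradiated ones, but no single gene of the 19122 tested passed in this comparison (0%). The median of the members was -0.83, against -0.09 over all genes and -0.27 over the expressed ones. All 46 values were below 0, 27 had an unadjusted p under 0.05 with limma against 9.13% of all genes, and 25 did not overlap against 16.9%. edgeR and DESeq2 called no member. Cdk1 had 82.0, 148, 226 and 274 normalised reads in the ilea of KO early mice 100, 117, 118 and 120 against 314 and 399 in WT irradiated mice (2.13-fold lower, log2 -1.09 ± 0.42, adjusted p = 0.166). Pcna had 204, 144, 180 and 158 against 336 and 304 (1.88-fold lower, log2 -0.91 ± 0.27, adjusted p = 0.165). Kif23 had 200, 327, 324 and 431 against 501 and 726 (log2 -0.96 ± 0.28, adjusted p = 0.165). None of these 3 genes overlapped between KO early and WT irradiated ileum. The WT non-irradiated ilea went down to 218.7 normalised reads for Cdk1 and 200.2 for Pcna, both within the KO early range. For Kif23 their lowest was 504, above every KO early ileum. Ube2c had the lowest value (log2 -1.15 ± 0.41). Kif20a (log2 -1.08 ± 0.35), Mcm4 (log2 -0.98 ± 0.32), Top2a (log2 -0.96 ± 0.39), Mcm6 (log2 -0.96 ± 0.31), Ccnb1 (log2 -0.96 ± 0.39), Rrm1 (log2 -0.94 ± 0.39), Ccnb2 (log2 -0.94 ± 0.34), Plk1 (log2 -0.94 ± 0.37), Mcm5 (log2 -0.90 ± 0.44), Uhrf1 (log2 -0.66 ± 0.35), Mki67 (log2 -0.59 ± 0.24) and Rrm2 (log2 -0.59 ± 0.40) had adjusted p from 0.165 to 0.34, while Ccne1 (log2 -0.19) and E2f1 (log2 -0.06) were near 0. Reads on Rn45s, the ribosomal RNA precursor, made up 29.4%, 3.81%, 17.0% and 19.4% of the KO early ileum libraries of mice 100, 117, 118 and 120, and 0.549% and 0.130% of the WT irradiated ones, with no overlap. Other ileum groups did overlap the KO early one, with 0.448%, 25.4% and 4.46% in WT non-irradiated and 13.6%, 11.35% and 0.283% in KO late ileum. On reads scaled to a fixed total without Rn45s the members' median was -0.74, and without mouse 100 it was -0.68. The part of Rn45s in this difference was otherwise not tested.

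KO late ileum was higher than KO early ileum in 45 of the 46 members, again with no gene of the whole table past the adjusted threshold (0%). The median was 0.87, against -0.02 over all genes and 0.18 over the expressed ones. There were 35 members with an unadjusted p under 0.05 against 13.4% of all genes, and 32 that did not overlap against 14.0%. Pcna (log2 1.07 ± 0.23) and Mcm6 (log2 1.22 ± 0.27) had the smallest adjusted p, 0.0726. Ccna2 had 989, 1152 and 1294 normalised reads in KO late ileum and 270, 351, 600 and 706 in KO early ileum (2.54-fold, log2 1.34 ± 0.34, adjusted p = 0.0762). Mki67 had 2599, 2673 and 2987 against 1272, 1558, 1588 and 2062 (log2 0.78 ± 0.21, adjusted p = 0.0838). In both genes all KO late libraries were above all KO early ones. edgeR called no member. DESeq2 called 9, where it called 7.21% of all genes in either direction, and 16 passed with receptor reads as a covariate, where 6.94% of all genes did. Receptor reads per M reads were 277, 712, 684 and 506 in KO early ileum, which overlapped the KO late ileum. Cdk1 (log2 1.24 ± 0.37), Top2a (log2 1.21 ± 0.34), Rrm1 (log2 1.19 ± 0.34), Ccnb1 (log2 1.17 ± 0.34), Kif20a (log2 1.16 ± 0.31), Nusap1 (log2 1.16 ± 0.29), Aurka (log2 0.99 ± 0.29), Plk1 (log2 0.92 ± 0.32), Rrm2 (log2 0.91 ± 0.35), Uhrf1 (log2 0.80 ± 0.31) and Mcm5 (log2 0.79 ± 0.39) had adjusted p from 0.0742 to 0.217. E2f1 (log2 0.38 ± 0.32) and Ccne1 (log2 0.07 ± 0.29) were nearer to 0, and Mybl2 was the 1 member below it (log2 -0.11).

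KO late and WT irradiated ileum were not told apart in these genes: the members' median was 0.15, no member had an unadjusted p under 0.05 (0.460% of all genes had one with a higher and 0.361% with a lower level), and no gene of the table was called (0%). With 2 WT irradiated mice this does not show that the levels were alike. Mki67 had 1947 and 2980 normalised reads in WT irradiated ileum, a range that took in all KO late libraries but 1. The fold change of Mki67 was 0.19 ± 0.26 and that of Top2a 0.25 ± 0.41. The other named genes ran from Ube2c (log2 -0.27 ± 0.43) to Nusap1 (log2 0.39 ± 0.34), with Cdk1 at 0.15 ± 0.44, Ccna2 at 0.29 ± 0.41, Ccnb1 at 0.21 ± 0.41, Mcm5 at -0.10 ± 0.46, Cdc45 at 0.29 ± 0.33, Pcna at 0.17 ± 0.28, Rrm2 at 0.32 ± 0.42, E2f1 at 0.32 ± 0.38, Ccne1 at -0.12 ± 0.35 and Plk1 at -0.02 ± 0.39. edgeR and DESeq2 called none. The KO early and KO late comparisons share the same 2 WT irradiated mice.

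**Figure D4:**
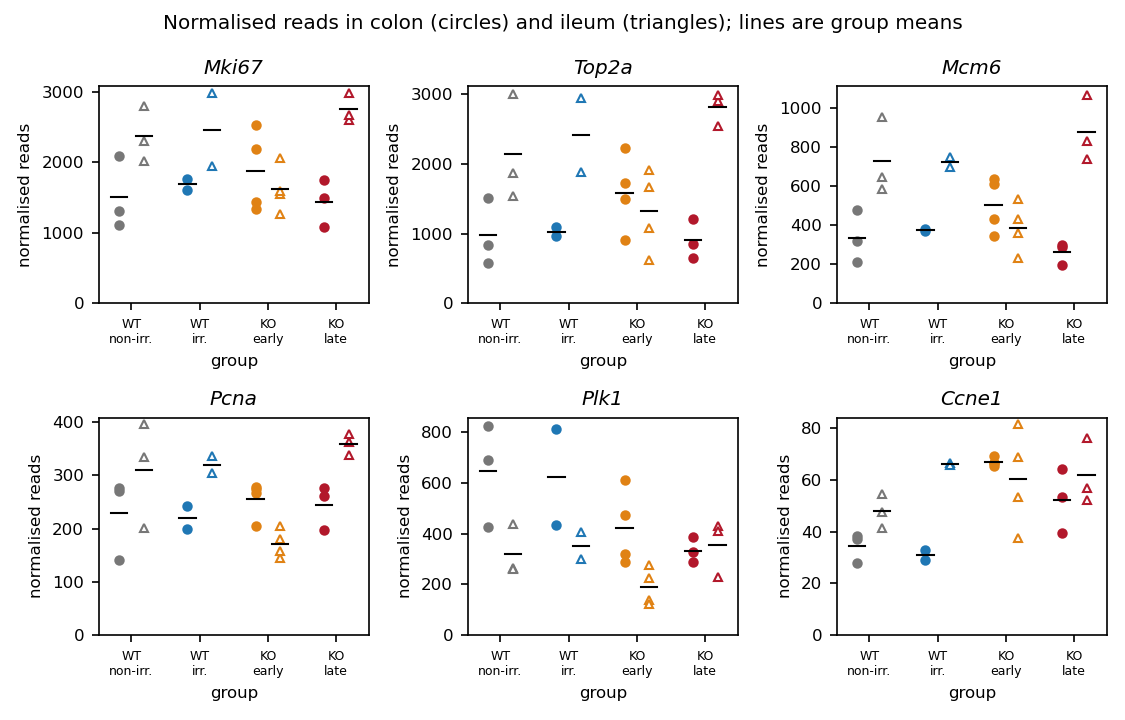
Normalised reads (vertical axes, from 0) of Mki67, Top2a, Mcm6, Pcna, Plk1 and Ccne1 in colon (filled circles) and ileum (open triangles) of the 4 groups (horizontal axes), 1 point per mouse, with lines at the group means. For Mcm6, ileum is above colon without overlap in WT and KO late mice, and the tissues overlap in KO early mice. The mean of Plk1 is highest in WT colon.

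Between KO late and WT irradiated colon no member passed with limma, edgeR or DESeq2 (1.03% of all genes passed with limma). The median was -0.27, against -0.01 over all genes and -0.17 over the expressed ones, and 37 of the 46 members were below 0. With receptor reads as a covariate the members' median was 0.006. Receptor reads per M reads were 1052, 1026 and 752 in KO late colon and 234 and 592 in WT irradiated colon, with no overlap. Their part in this difference was otherwise not tested. In 15 members every KO late library was below both WT irradiated ones, against 18.5% of all genes, and in 2 above, against 16.7%. There were 4 members with an unadjusted p under 0.05, Ccne1 higher and Aurkb, Plk1 and Tk1 lower, against 7.32% of all genes higher and 9.13% lower. Aurkb had 43.4, 31.6 and 69.0 normalised reads in KO late colon against 104 and 90.7 in WT irradiated colon (log2 -1.08 ± 0.38, adjusted p = 0.231). Plk1, at 387, 286 and 326 against 812 and 435, was 1.79-fold lower (log2 -0.84 ± 0.38, adjusted p = 0.3). Neither gene overlapped between these 2 groups. The WT non-irradiated colons went down to 58.7 normalised reads for Aurkb, within the KO late range, and to 424 for Plk1, above it. Ccne1 (log2 0.71 ± 0.32), Rrm2 (log2 0.54 ± 0.43), Ccnb1 (log2 0.14 ± 0.45) and Pcna (log2 0.14 ± 0.32) were above 0. Cdt1 (log2 -0.99 ± 0.55), Tk1 (log2 -0.88 ± 0.40), Uhrf1 (log2 -0.86 ± 0.41), E2f1 (log2 -0.71 ± 0.38), Mcm5 (log2 -0.51 ± 0.35), Kif20a (log2 -0.51 ± 0.32), Cdk1 (log2 -0.31 ± 0.42), Mki67 (log2 -0.26 ± 0.34) and Top2a (log2 -0.23 ± 0.42) were below 0.

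Between KO early and WT irradiated colon no member passed with limma or edgeR (0.204% of all genes passed with limma), and DESeq2 called 1 (1.23% of all genes). The median was 0.17 and 38 members were above 0. Ccne1 had 66.6, 69.0, 65.2 and 66.3 normalised reads in KO early colon and 32.9 and 29.0 in WT irradiated colon (2.12-fold higher, log2 1.09 ± 0.30, adjusted p = 0.304). The 3 WT non-irradiated colons, at 38.2, 28.0 and 37.0, were also below every KO early colon. Rrm2 (log2 1.04 ± 0.41) and Mcm4 (log2 0.92 ± 0.34) had an unadjusted p under 0.05 as well, which 2.68% of all genes had in that direction. Birc5 (log2 0.60 ± 0.41), Mcm5 (log2 0.56 ± 0.33), Top2a (log2 0.56 ± 0.40), Uhrf1 (log2 0.47 ± 0.39), Cdk1 (log2 0.38 ± 0.40), Ccnb1 (log2 0.34 ± 0.43), Pcna (log2 0.21 ± 0.30) and Mki67 (log2 0.10 ± 0.33) were above 0 with larger p, and E2f1 (log2 -0.12 ± 0.36), Nusap1 (log2 -0.25 ± 0.34) and Plk1 (log2 -0.55 ± 0.36) below.

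KO late colon was lower than KO early colon in 45 of 46 members, with a median of -0.51 against 0.03 over all genes and -0.10 over the expressed ones. No member passed with limma or edgeR (0.00522% of all genes, 1 gene, passed with limma), while DESeq2 called 3 (and 210 of the 19145 genes in all). The unadjusted p was under 0.05 for 14 members, all lower, against 7.58% of all genes, and 13 did not overlap against 6.47%. Mcm2 had 76.8, 44.1 and 88.8 normalised reads in KO late colon and 152, 166, 200 and 178 in KO early colon (2.56-fold lower, log2 -1.36 ± 0.32, adjusted p = 0.261). Uhrf1 had 83.0, 69.1 and 105 against 182, 243, 213 and 221 (log2 -1.33 ± 0.34, adjusted p = 0.301). Neither gene overlapped, nor did Mcm5 (log2 -1.06 ± 0.29) or Aurkb (log2 -1.05 ± 0.32). Top2a (log2 -0.78 ± 0.35), Cdk1 (log2 -0.69 ± 0.35), Kif20a (log2 -0.63 ± 0.26), Rrm1 (log2 -0.60 ± 0.29), E2f1 (log2 -0.59 ± 0.32), Rrm2 (log2 -0.50 ± 0.36), Ccne1 (log2 -0.37 ± 0.27), Mki67 (log2 -0.36 ± 0.29), Plk1 (log2 -0.29 ± 0.32) and Ccnb1 (log2 -0.20 ± 0.38) were also below 0. Helicase and licensing genes had a median of -0.86 and spindle and centromere genes one of -0.20. Pcna was near 0 (log2 -0.07 ± 0.26).

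Between WT irradiated and WT non-irradiated mice, in colon (median 0.21) and in ileum (median 0.10), no gene of either table was called by limma (0%). No member had an unadjusted p under 0.05 in either tissue, which 0.214% of all genes had with a higher and 0.131% with a lower level in colon, and 0.397% and 0.580% in ileum. edgeR and DESeq2 called no member. The largest differences of single members were those of Ube2c in colon (log2 0.74 ± 0.42) and Ccne1 in ileum (log2 0.46 ± 0.35). Mki67 differed by 0.22 ± 0.34 in colon and 0.03 ± 0.26 in ileum on the log2 scale, Top2a by 0.18 ± 0.42 and 0.20 ± 0.41, and Plk1 by -0.07 ± 0.38 and 0.16 ± 0.39. Cdk1, Ccnb1, E2f1, Mcm5, Pcna and Rrm2 lay between 0.003 (Pcna) and 0.46 (E2f1) in colon and between 0.08 (Rrm2) and 0.23 (Mcm5) in ileum. The spread among the 3 WT non-irradiated mice was wide, with Top2a at 1518, 835 and 587 normalised reads in the colons of mice 72, 73 and 75. Mouse 72 had the highest and mouse 75 the lowest members' median of the 3 in both tissues.

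Other genes of the cycle were counted in lists beside the members, between colon and ileum. The shares of all genes tested, against which each count below stands, were 10.9% lower and 10.8% higher in WT colon, 17.0% lower and 11.1% higher in KO late colon, and 6.43% lower and 7.73% higher in KO early colon. Of 42 other replication genes, 19 were lower in WT colon and none higher, and in KO late mice 22 were lower and 1 higher, while in KO early mice 2 were lower and 1 higher. Mcm10, which helps to activate the loaded helicase, was lower in the colon of WT (log2 -1.34 ± 0.19), KO late (log2 -1.47 ± 0.24) and KO early mice (log2 -0.94 ± 0.21). Pole and Chaf1a were lower in WT colon (log2 -0.87 ± 0.19 and -0.93 ± 0.21). In KO late colon Prim1, the small primase subunit, and Chaf1a, which assembles chromatin on new DNA, were lower (log2 -1.72 ± 0.33 and -1.36 ± 0.27). Rpa1, of the single-strand binding protein, was higher in KO early colon (log2 0.71 ± 0.20). Of 59 other mitosis genes tested, 17 were lower in WT colon, 28 in KO late colon and none in KO early colon, where Pkmyt1, an inhibitory kinase of CDK1, was higher (log2 1.05 ± 0.29). Those with the smallest p were Cdca5, Ncaph, Kif15 and Cdca3 in WT mice (log2 -1.17 ± 0.25, -0.95 ± 0.20, -0.91 ± 0.22 and -1.20 ± 0.30) and Cdca5, Ncapd3, Spc24 and Racgap1 in KO late mice (log2 -1.70 ± 0.32, -0.86 ± 0.19, -1.58 ± 0.35 and -1.31 ± 0.29). Of 15 other E2F and DREAM genes, 3 were lower in WT colon (E2f2, log2 -1.61 ± 0.32, E2f3, log2 -0.57 ± 0.17, and E2f8, log2 -0.72 ± 0.24), 6 in KO late colon (led by Tfdp2, E2f8, E2f3 and Tfdp1, log2 -1.08 ± 0.21, -1.38 ± 0.30, -0.97 ± 0.22 and -0.82 ± 0.24) and 1 in KO early colon (E2f3, log2 -0.86 ± 0.19). The E2F and DREAM counts in WT and KO early mice, and the replication counts in KO early mice, rest on few genes, and nothing is read from them.

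The genes that act before the cycle commits gave a mixed picture. In WT colon against ileum Ccnd1 (log2 -1.70 ± 0.33), Ccnd2 (log2 -0.77 ± 0.24) and their kinase Cdk4 (log2 -0.98 ± 0.31) were lower, and the cyclin Ccnd3 was higher (log2 0.66 ± 0.20), of 8 D cyclin, kinase and pocket protein genes. Of those 8, 6 were lower in KO late colon (led by Ccnd1, Ccnd2, Cdk4 and Rbl1, log2 -2.29 ± 0.42, -1.60 ± 0.30, -1.49 ± 0.39 and -0.71 ± 0.21) and 1 in KO early colon, the pocket protein gene Rb1 (log2 -0.60 ± 0.20). Of 7 CDK inhibitor genes tested, Cdkn2b, which blocks CDK4 and CDK6, was lower in the colon of WT (log2 -1.08 ± 0.23), KO early (log2 -1.35 ± 0.25) and KO late mice (log2 -2.03 ± 0.29). Cdkn1b, which holds cells out of S phase, was higher in KO early colon (log2 0.95 ± 0.21), and Cdkn2c was lower in KO late colon (log2 -1.12 ± 0.30). Of 52 histone cluster genes tested, 4 were lower and 3 higher in WT colon, 12 lower in KO late colon and 1, Hist1h2be, higher in KO early colon (log2 0.73 ± 0.23). Those with the smallest p were Hist1h2be, Hist1h1t, Hist1h2bc and Hist1h1b in WT (log2 1.16 ± 0.21, 2.38 ± 0.61, 0.80 ± 0.21 and -1.68 ± 0.45) and Hist1h1a, Hist2h2be, Hist1h2bb and Hist1h1b in KO late mice (log2 -2.49 ± 0.60, -1.49 ± 0.36, -2.01 ± 0.52 and -2.18 ± 0.57). The histone counts lower in WT colon and in KO late colon lie near the 10.9% and 17.0% of all genes that were lower, and nothing is read from them. Histone genes are near-identical copies whose reads may be shared, so single members are uncertain. None of these 6 lists had a called gene in any comparison within a tissue.

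Markers of cell types moved with some of these results, and their part in them was not tested. The summed levels of 10 stem cell markers were 4097 to 5901 normalised reads in KO early ileum, 6501 to 9715 in KO late ileum, 8100 to 8844 in WT irradiated ileum and 8721 to 13720 in WT non-irradiated ileum, against 2164 to 4046 in all colon libraries. Of those 10, 5 were lower in colon than in ileum in WT mice, 2 in KO early and 6 in KO late mice, where 10.9%, 6.43% and 17.0% of all genes tested were lower. The summed levels of 8 Paneth cell markers were 3485 to 7703 in KO early ileum, 6318 to 34050 in KO late ileum, 16630 to 18150 in WT irradiated ileum and 10940 to 39190 in WT non-irradiated ileum. The 8 goblet cell markers summed to 60900 to 178400 in KO early ileum, 201800 to 328900 in KO late ileum, 143100 to 376300 in WT irradiated ileum and 185300 to 283400 in WT non-irradiated ileum. Stromal markers, 10 genes, summed to 481 to 827 in KO early ileum, 355 to 472 in KO late ileum, 265 to 426 in WT irradiated ileum and 268 to 574 in WT non-irradiated ileum.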

How the data were processed

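Epithelial RNA of 12 mice, 24 libraries, was sequenced from 100 ng of RNA as single 50 bp reads, per the labels' protocols. HISAT 0.1.6, HOMER and the mm9 build are named in the submitters' processing notes. The deposited signal values are gene reads divided by a factor for each library, as the values themselves show: 100% of low values are whole multiples of 1 read within 0.05 normalised reads. In the ileum library of KO early mouse 118 1 read is worth 1.01 normalised reads, too near 1 to tell whole reads from rounded values, so the reads recovered for it are less certain. Colon and ileum libraries were compared within tissue (4 groups) and across tissues (8 groups) with limma 3.58.1 (trend) in R 4.3.3 on log2(value + 1), keeping genes that reached 10 normalised reads in 2 or more libraries, and p-values were adjusted over all genes tested. edgeR 4.0.16 and DESeq2 1.42.0 on the recovered reads were alternatives, as were other pseudocounts, filters and scalings, a mouse block and leaving out each mouse. The test was checked on simulated data in which genes varied independently, so shifts shared by the members of a library were not covered. The members and lists were chosen with earlier results of these data known. Named genes are 10 fixed genes, every member called (up to 6 each way) and, in each of 7 roles, the member with the smallest p and that with the largest change, and from other lists the called genes or those with the smallest p. Not every gene of that rule is printed for the WT groups against each other and the interactions with WT irradiated mice, where no member passed. Not all genes of the other lists are reported here. A few other members were named after their values were seen. Mouse numbers in the labels pair colon with ileum of the same animal. The correlation of a mouse's colon and ileum deviations from their group means ranged from -0.36 to 0.70 over 19588 genes. The labels do not say that mice of a group came from separate litters or batches.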

Additional observations from a re-analysis of the deposited data

Results flagged for a closer look

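Outlying libraries were looked for in the 2 groups of 4 mice, 94 checks in all, where chance alone flags about 1 in 20. There were 3 that stood out, a share below that rate, so nothing is read from their number. All were from mouse 100 and the lowest of their group: Pcna in KO early colon at 204.1 normalised reads, Ube2c in KO early colon at 54.8 and Cenpf in KO early ileum at 215.

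The tissue effect, colon minus ileum on the log2 scale, differed between KO late and KO early mice by limma's interaction test in 11 members, where 2.08% of all genes tested passed in that direction. This comparison was added after the data were seen. The count was 0 on reads scaled to a fixed total without Rn45s, 0 with the median of expressed genes subtracted, 7 without mouse 118 and 0 without any 1 of the other 6 mice. The differences were -2.216 for Mcm2, -2.15 for Mcm6, -2.128 for Uhrf1, -2.036 for Mcm4 and -2.025 for Aurkb. They were -1.991 for Top2a, -1.794 for Kif20a, -1.789 for Rrm1, -1.616 for Tyms, -1.546 for Mcm7 and -1.502 for Aurka.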

How the results depend on the processing

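The members' median fold change stayed within the spread between libraries of its main value in all 15 comparisons under every setting. That spread, the pooled SD of the libraries' medians, was 0.298 in colon, 0.369 in ileum and 0.335 over both. Several of the main medians were smaller than it, so for those the rule says little about stability. The median crossed 0 in KO late against WT irradiated colon (-0.42 to 0.01) and ileum (-0.02 to 0.22) and in WT irradiated against WT non-irradiated colon (-0.04 to 0.44) and ileum (-0.18 to 0.32). The upper end for KO late against WT irradiated colon was the setting with receptor reads as a covariate. Counts of members called moved more. Where no share of all genes stands beside such a count, here or above, it cannot be set against the change over all genes. For colon against ileum in WT mice, 29 became 15 on reads scaled to a fixed total without Rn45s (RPM) and 6 to 29 with 1 mouse left out (6 without mouse 61, 12 without 59, 15 without 73). In KO late mice 34 became 17 on RPM and 10 to 21 with 1 mouse left out (10 without mouse 50, 16 without 49, 21 without 57). RPM moved the median of all genes tested from 0.01 to 0.12 in WT and from 0.07 to 0.28 in KO late mice, colon minus ileum. In KO early mice 1 became 2 on RPM, 3 with receptor reads as a covariate and 0 to 1 with 1 mouse left out (0 without mouse 100). For the interaction of KO late against KO early, 11 became 27 with DESeq2 (11.2% of all genes), 0 on RPM, 0 with the median of expressed genes subtracted, 3 with the covariate and 0 to 7 with 1 mouse left out. For KO early against both WT groups, 0 became 12 with DESeq2, 1 with edgeR, 1 with a filter of 100 normalised reads, 1 with a pseudocount of 5, 8 with the covariate and 0 to 1 with 1 mouse left out. For KO early against WT irradiated, 0 became 1 in the interaction with DESeq2 and 3 with both WT groups pooled, and in colon 1 with DESeq2 and 1 with WT pooled. Within tissues, KO late against KO early went from 0 to 3 with DESeq2 in colon, and from 0 to 9 with DESeq2 (7.21% of all genes) and 16 with the covariate (6.94%) in ileum. With 1 mouse left out all 8 within-tissue counts stayed at 0. The causes were not tested.

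With the mouse as a replicate block the count was 4 for colon against ileum in KO early mice, 40 for the interaction of KO late against KO early, 23 for KO early against both WT groups and 1 for KO early against WT irradiated. The block gave 37 members in WT (36 lower and 1 higher, against 14.4% and 12.8% of all genes) and 42 in KO late mice (all lower, against 24.7%), which changed neither count by over 1.5 times. No paired analysis was possible within a tissue because the groups share no mouse. Of the single gene values under all settings, 2812 kept their direction and side of the threshold, 287 lost the call, 40 gained it, 46 moved and 0 reversed. The smallest groups have 2 mice, which limits the precision of every comparison with WT irradiated mice. The shallowest library still held 15 reads for its lowest member.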
